A study of Homo sapiens with 5 samples.

Results

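The 10 genes described here encode proteins that handle nucleosomes: the 2 large subunits of chromatin assembly factor 1 (CHAF1A and CHAF1B), the anti-silencing function 1 chaperones (ASF1A and ASF1B), 3 variants of histone H2A (H2AFZ, H2AFX and H2AFY), 2 high mobility group box proteins (HMGB1 and HMGB2) and the bromodomain ATPase ATAD2. They were chosen from 26364 listed genes by name, for their roles in histone deposition and chromatin packing, but with earlier results of these data known, and all 10 had enough reads to be tested. mRNA-seq was done on IMR-90 cells, a normal human fibroblast line derived from fetal lung, at 24 hr after transfection of siRNA into growing cells. Ctr-KD cells, 2 libraries, received a control siRNA directed against luciferase, and NSD2-KD cells, 3 libraries, received an siRNA against NSD2, the histone H3 lysine 36 methyltransferase that the gene table lists as WHSC1. The NSD2-KD libraries were made with different siRNAs, called NSD2-1, NSD2-2 and NSD2-3. There is 1 library for each, so that the sequence of the siRNA and the replicate cannot be told apart. All cells were of the same line, with no other treatment named in the labels, and the comparison asks how mRNA levels differ early after the loss of NSD2. Normalized counts, which are read counts divided by a size factor of the library, are given below in the order NSD2-1, NSD2-2, NSD2-3.

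Newly replicated DNA is packed by a relay of chaperones. ASF1 proteins bind a dimer of histones H3 and H4 and hand it either to CAF-1, which places it on DNA behind the replication fork, or to the HIRA complex, which works without replication. Variants of H2A replace the canonical histone at chosen sites: H2A.Z (H2AFZ) at promoters, H2A.X (H2AFX) throughout chromatin, where it is phosphorylated around DNA breaks, and macroH2A (H2AFY) in repressed domains. HMGB proteins bend DNA and bind nucleosomes briefly, and the loss of HMGB2 from the nucleus is known from senescent fibroblasts. ATAD2 reads acetylated histone H4 and is abundant in dividing cells. The replication-linked chaperones and HMGB2 are made mainly by cycling cells, whereas ASF1A, H2AFY and HMGB1 are made in most cells.

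In NSD2-KD cells, 8 of the 10 genes had lower values with every NSD2 siRNA than in either Ctr-KD library: ASF1B, ATAD2, HMGB2, CHAF1B, CHAF1A, H2AFX, H2AFZ and HMGB1, in order from the largest to the smallest difference. Over all tested genes the same held for 13.9%. Mean levels of these genes in NSD2-KD cells lay between 33.6% (ASF1B) and 78.0% (HMGB1) of the Ctr-KD mean. H2AFY was the 1 gene above both Ctr-KD libraries with every siRNA, against 13.8% of tested genes, and ASF1A overlapped the Ctr-KD values. At an unadjusted p under 0.05, 8 of the 10 were lower (4.99% of tested genes) and 1 was higher (4.19%). After Benjamini-Hochberg adjustment over the 11313 tested genes, only ATAD2 had fallen by limma (1 of 10, against 0.053% of tested genes). After adjustment 0 of 10 were higher by limma (0.0354%), with 1 of 10 higher at an unadjusted p under 0.05. By edgeR and DESeq2 0 of 10 were higher, beside 5 of 11313 and 14 of 10189 tested genes. By edgeR on the recovered reads ATAD2 alone was lower (0.0972% of tested genes), and by DESeq2 ATAD2 and HMGB2 were lower (0.402%). The median log2 difference of the 10 genes was -0.79, beside -0.0089 over all tested genes. In bulk RNA, fewer cells that make a transcript and less of it per cell cannot be told apart.

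**Figure D1:**
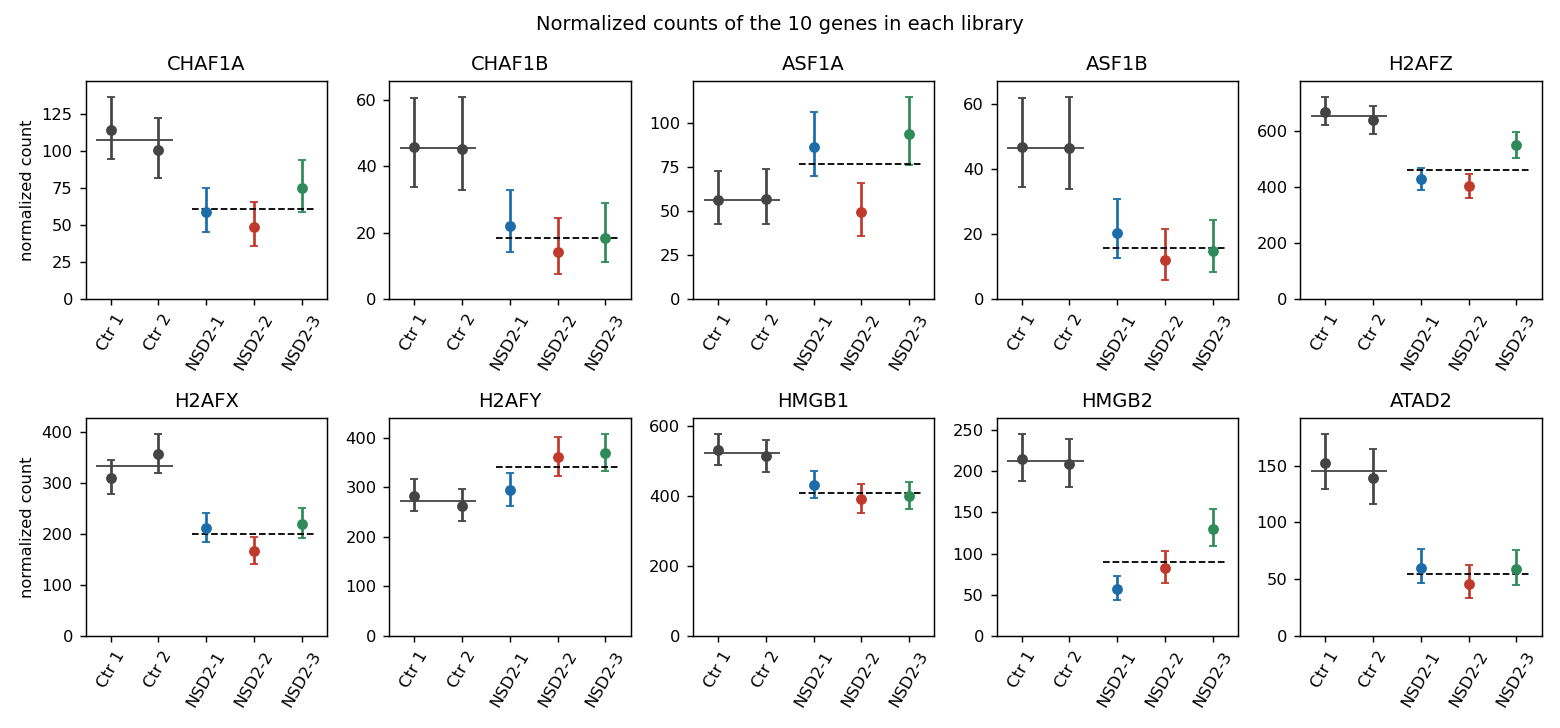
Normalized counts (vertical axis, from 0, with a scale for each gene) of the 10 genes in the 2 Ctr-KD and 3 NSD2-KD libraries. Points are single libraries, bars are exact 95% Poisson intervals of the read count, and horizontal lines are group means. The NSD2-KD points lie below both Ctr-KD points in 8 panels, above them in that of H2AFY and on both sides in that of ASF1A.

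The libraries held 2473691 to 2845063 reads on genes, of which the 10 most abundant genes took 11.2 to 12.1%. NSD2 itself was present at 463 and 443 normalized counts in Ctr-KD cells and at 90.2, 81.9 and 87.9 in NSD2-KD cells. These are 18.1 to 19.9% of the Ctr-KD mean (log2 difference -2.37, limma adjusted p = 0.000464), so that all 3 siRNAs had lowered their target to a like extent. Between the 2 controls the spread was only slightly more than counting error gives, with a chi-square of 1.05 per degree of freedom over 12373 genes (p = 0.000175 for these libraries), whereas every other pair of libraries had 3.87 to 5.29. Both were kept as 2 replicates. The study's methods call them biological replicates, and the labels do not say whether they came from separate cultures. Of 12 fibroblast markers, 11 passed the filter, led by COL1A1 at 91004 to 106318 normalized counts. PTPRC and CD3E of blood cells, PECAM1 and CDH5 of endothelium and KRT5, KRT14, SFTPC and SFTPB of epithelium were at 0 in every library. The other members of these lists were low or, for TEK of endothelium and CD68 of blood cells, at up to 149.7 and 103 normalized counts.

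CHAF1A encodes the large subunit of CAF-1, which holds the histones and binds the sliding clamp. It had 114 and 101 normalized counts in Ctr-KD cells and 58.9, 49.2 and 75.2 in NSD2-KD cells. The groups did not overlap, and the mean in NSD2-KD cells was 56.8% of that in Ctr-KD cells. The log2 difference was -0.83 (SE 0.207, 95% interval -1.30 to -0.35, limma adjusted p = 0.267). CHAF1B encodes the middle subunit, a WD-repeat protein needed for the same complex. Its values were 45.7 and 45.3 in Ctr-KD cells and 22.1, 14.2 and 18.5 in NSD2-KD cells. All 3 knockdown libraries were low, with a mean at 40.2% of Ctr-KD and a log2 difference of -1.29 (SE 0.257, 95% interval -1.88 to -0.70, limma adjusted p = 0.198). CHAF1B rests on 44 and 48 reads in Ctr-KD cells and on 13 to 24 in NSD2-KD cells. The Ctr-KD values lie closer together than such counts allow one to measure, since the 95% Poisson interval of the first runs from 33.7 to 60.6. CHAF1A spans chr19:4402637-4445015 (plus strand, GRCh37, 15 exons) and CHAF1B chr21:37757690-37791313 (plus strand, 14 exons). The exons of CHAF1B share 89 bases with MORC3 on the same strand, a gene at 99.3% of its Ctr-KD mean in NSD2-KD cells. Those of CHAF1A share 81 bases with another annotated gene on the other strand.

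The ASF1 paralogs gave different patterns. ASF1B, the form tied to proliferating cells, had 46.7 and 46.3 normalized counts in Ctr-KD cells and 20.2, 12.02 and 14.6 in NSD2-KD cells. Every siRNA gave a value under 50% of the Ctr-KD mean: 43.5% with NSD2-1, 25.8% with NSD2-2 and 31.5% with NSD2-3. The log2 difference of -1.54 (SE 0.276, 95% interval -2.18 to -0.91) ranked 15 from the lowest among all tested genes, with a limma adjusted p of 0.164. ASF1B was counted on 45 and 49 reads in Ctr-KD cells and on 22, 11 and 15 in NSD2-KD cells, and none of the latter's Poisson intervals (12.7 to 30.6, 5.998 to 21.5 and 8.20 to 24.2 normalized counts) reached those of the Ctr-KD libraries (lower ends 34.5 and 33.8). ASF1A, which serves both replication-coupled and replication-independent assembly, had 56.2 and 56.6 normalized counts in Ctr-KD cells and 86.5, 49.2 and 93.7 in NSD2-KD cells. With NSD2-1 and NSD2-3 it was at 153% and 166% of the Ctr-KD mean, and with NSD2-2 at 87.2%. The siRNAs thus did not share a rise. With NSD2-2 the Poisson interval (35.9 to 65.8 normalized counts, on 45 reads) holds both Ctr-KD values. The interval of the log2 difference of 0.38 (SE 0.275, 95% interval -0.25 to 1.01, limma adjusted p = 0.742) spans 0. ASF1A lies at chr6:119215316-119230336 (plus strand, 4 exons) and ASF1B at chr19:14230324-14247425 (minus strand, 4 exons) of GRCh37. The exons of ASF1A share 205 bases with MCM9 and those of ASF1B 70 with another annotated gene, both on the other strand. Whether the counting used strand is not given in the sources used here.

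Promoters are shown for the ASF1 paralogs, of which ASF1B alone was apart from the controls, and for H2AFZ, the most abundant of the 10 genes. They are RefSeq sequences of GRCh38.p14 that run from 250 bases before the transcript start to 50 after it, written 5′ to 3′ on the strand of the gene. Capitals mark the CCAAT box (CCAAT, or ATTGG on the other strand) and the cell cycle homology region (CHR, TTTGAA, or TTCAAA on the other strand), an element known from genes of the G2 and M phases that is bound by the DREAM complex.
ASF1B, chr19:14136540-14136839, minus strand: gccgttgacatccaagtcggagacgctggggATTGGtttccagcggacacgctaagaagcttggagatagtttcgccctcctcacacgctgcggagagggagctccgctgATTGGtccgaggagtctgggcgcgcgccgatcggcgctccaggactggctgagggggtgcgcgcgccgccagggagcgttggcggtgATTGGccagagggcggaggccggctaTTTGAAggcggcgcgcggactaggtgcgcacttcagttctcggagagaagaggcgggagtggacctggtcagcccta
ASF1A, chr6:118893902-118894201, plus strand: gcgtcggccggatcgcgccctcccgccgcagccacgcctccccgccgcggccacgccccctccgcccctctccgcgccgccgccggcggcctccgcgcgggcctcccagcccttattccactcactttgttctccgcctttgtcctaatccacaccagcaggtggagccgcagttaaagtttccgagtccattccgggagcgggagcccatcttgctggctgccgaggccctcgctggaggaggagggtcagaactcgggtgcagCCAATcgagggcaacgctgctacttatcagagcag
H2AFZ, chr4:99950226-99950525, minus strand: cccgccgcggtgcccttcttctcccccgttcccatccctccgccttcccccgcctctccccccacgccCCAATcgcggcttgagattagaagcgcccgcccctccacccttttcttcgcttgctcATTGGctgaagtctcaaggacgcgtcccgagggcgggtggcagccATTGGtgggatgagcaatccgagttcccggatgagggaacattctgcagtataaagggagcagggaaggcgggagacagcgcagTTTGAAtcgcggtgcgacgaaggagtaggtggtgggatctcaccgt
The ASF1B promoter holds 3 CCAAT boxes, all on the other strand, and a CHR that starts 27 bases before the transcript start. The ASF1A promoter holds 1 CCAAT box, after the start, and no CHR, and that of H2AFZ holds 3 CCAAT boxes and a CHR just after the start. The table had 11 promoters of 8 of the 10 genes, HMGB2 and ATAD2 not among them. A CHR was found in 4 of the 11 (1 each of ASF1B, H2AFX, H2AFZ and HMGB1), beside 15.2% of 35116 promoters of the same length, and a CCAAT box in 8 of the 11 (those of 7 genes, all but CHAF1B), beside 34.6%. Both motifs stood together in the same 4 promoters and in 5.90% of all. For the E2F site only the words TTTCCCGC, TTTCGCGC, TTTGCCGC and TTTGGCGC were searched, on either strand. They were in 0 of the 11 windows and in 3.31% of all, which says only that these letters are not there. Other forms of the E2F site were not searched, so the windows may hold them. The words of the 3 motifs do not contain each other. A match is a string of letters and was not tested for binding.

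Among the H2A variants, H2A.Z and H2A.X had lower values and macroH2A had higher ones. H2AFZ, which encodes H2A.Z, had 668 and 637 normalized counts in Ctr-KD cells and 427, 402 and 549 in NSD2-KD cells. The groups were apart, with NSD2-3 nearest to Ctr-KD, and the log2 difference was -0.52 (SE 0.142, 95% interval -0.84 to -0.19, limma adjusted p = 0.298). H2AFX, an intronless gene for the variant whose phosphorylated form marks DNA breaks, had 311 and 357 in Ctr-KD cells and 212, 166 and 219.6 in NSD2-KD cells. Its mean in NSD2-KD cells was 59.7% of Ctr-KD, and the log2 difference was -0.75 (SE 0.153, 95% interval -1.10 to -0.40). The limma adjusted p was 0.198 and that of DESeq2 0.0589. H2AFY, which encodes macroH2A, a variant with a large globular domain found in silent chromatin, had 283 and 262 in Ctr-KD cells and 294, 360.5 and 369 in NSD2-KD cells. Each siRNA gave a value above both controls, by little with NSD2-1 (108% of the Ctr-KD mean) and by more with NSD2-2 and NSD2-3 (132% and 135%). The log2 difference was 0.32 (SE 0.132, 95% interval 0.01 to 0.62, limma adjusted p = 0.517). In GRCh37, H2AFZ lies at chr4:100869243-100871512 (minus strand, 5 exons), H2AFX at chr11:118964584-118966175 (minus strand, 1 exon) and H2AFY at chr5:134670071-134735604 (minus strand, 9 exons). The exons of H2AFZ share 61 bases with H2AZ1-DT and those of H2AFY 175 with PITX1-AS1, both on the other strand. Whether reads from these stretches were counted is not known.

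HMGB2 was among the genes with the largest differences, and the siRNAs differed in its level. It had 215 and 209 normalized counts in Ctr-KD cells and 57.1, 81.9 and 129.8 in NSD2-KD cells. NSD2-1 left 26.9% of the Ctr-KD mean, NSD2-2 38.6% and NSD2-3 61.2%, so that the order of the siRNAs was not the one seen for the chaperones, where NSD2-2 gave the lowest values. The log2 difference by limma was -1.31 (SE 0.295, 95% interval -1.99 to -0.64, adjusted p = 0.237). DESeq2 on the recovered reads gave -1.24 with an adjusted p of 0.0218, and edgeR an adjusted p of 0.172. Without NSD2-3, the library with the smallest fall, the log2 difference was -1.62 and HMGB2 passed limma (adjusted p = 0.0356). HMGB2 did not pass limma without NSD2-1 (-1.03, adjusted p = 0.168) or without NSD2-2 (-1.29, adjusted p = 0.246). Its log2 difference was -1.29 without the first Ctr-KD library and -1.34 without the second. HMGB1, also a secreted alarm signal, had more normalized counts than HMGB2, but fewer per kb of transcript in Ctr-KD cells. The counts of HMGB1 were 532 and 513 in Ctr-KD cells and 432, 391 and 400.2 in NSD2-KD cells. It was at 78.0% of the Ctr-KD mean, with a log2 difference of -0.36 (SE 0.101, 95% interval -0.59 to -0.13, limma adjusted p = 0.315), the smallest difference among the 8 genes below both controls. HMGB1 lies at chr13:31030841-31191734 (minus strand, 5 exons, GRCh37) and HMGB2 at chr4:174252527-174255583 (minus strand, 5 exons). The annotation names 48 pseudogene copies of HMGB1 and 1 of HMGB2, none listed in the gene table, so that reads shared with a copy make the level of HMGB1 uncertain.

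ATAD2 fell in NSD2-KD cells. It encodes an ATPase with a bromodomain and is itself a known E2F target. It had 152 and 139 normalized counts in Ctr-KD cells and 59.8, 45.9 and 58.6 in NSD2-KD cells. The siRNAs gave nearly the same level, 41.1%, 31.5% and 40.2% of the Ctr-KD mean, with a log2 difference of -1.40 (SE 0.178, 95% interval -1.81 to -0.995). By p-value ATAD2 ranked 10 among the tested genes and by log2 difference 33. The adjusted p was 0.0471 by limma, 0.0304 by edgeR and 0.000195 by DESeq2. The limma call was lost when any 1 library other than NSD2-3 was left out: the adjusted p was 0.999 without the first Ctr-KD library and 0.92 without the second, 0.0518 without NSD2-1 and 0.0561 without NSD2-2, while the log2 difference stayed between -1.47 and -1.28. It was also lost without the filter on low counts (adjusted p = 0.0529), at a minimum mean count of 50 (0.0542), without the trend (0.209) and with the Ctr-KD libraries averaged. The study lists qRT-PCR primers for ATAD2, which was thus not an independent pick. It spans chr8:124332090-124428590 (minus strand, GRCh37, 28 exons) and the exons of its canonical transcript overlap no other annotated gene.

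**Figure D2:**
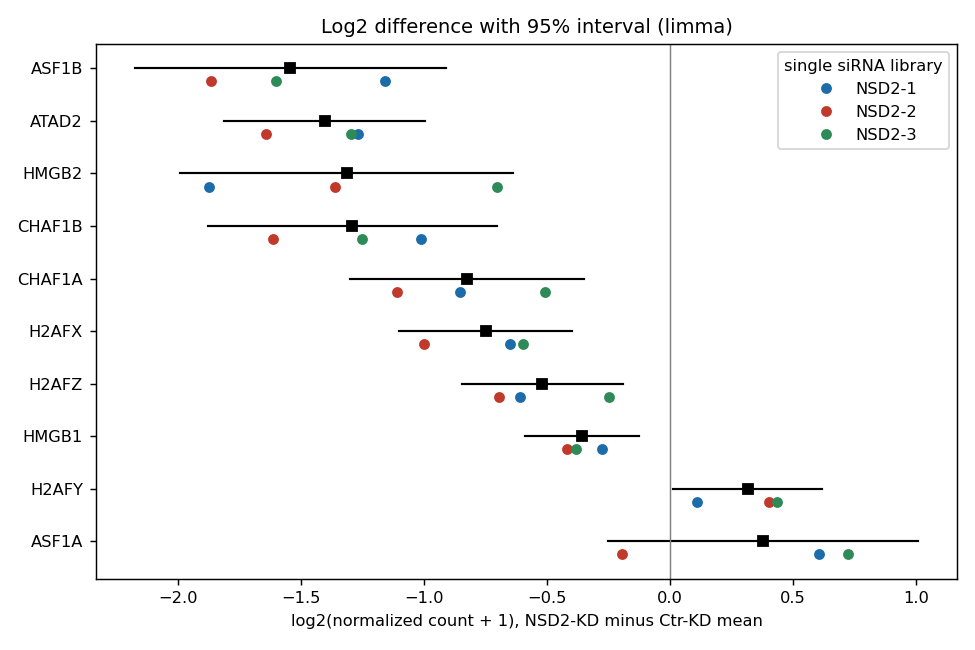
Log2 difference (NSD2-KD minus Ctr-KD, log2 of normalized count + 1) of each gene. Black squares and lines are the limma estimate and its 95% interval, and coloured points are single siRNA libraries minus the Ctr-KD mean. ASF1B, ATAD2, HMGB2 and CHAF1B lie at -1.54 to -1.29, and only ASF1A has points on both sides of 0.

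The siRNAs differed in strength over these genes although NSD2 mRNA was alike. NSD2-2 gave the lowest of the 3 values in 8 of the 10 genes, HMGB2 and H2AFY being lowest with NSD2-1. Over the 8 genes below both controls, the median level was 51.6% of the Ctr-KD mean with NSD2-1 (range 26.9 to 82.6%), 42.2% with NSD2-2 (25.8 to 74.8%) and 63.5% with NSD2-3 (31.5 to 84.1%). In log2 terms the median of all 10 genes was -0.75, -1.06 and -0.55 in these libraries. The highest of the 3 values among the 8 genes came from NSD2-1 in 4 and from NSD2-3 in 4, so that no single order of the siRNAs held. With 1 library for each siRNA, these differences have no replicate check.

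Per kilobase of transcript, H2AFZ was the most abundant of the 10 mRNAs and CHAF1B the least. In Ctr-KD cells H2AFZ had 753 ± 25.3 (SD, n = 2) normalized counts per kb of its canonical transcript and H2AFX 209.7 ± 20.6. HMGB2 (147 ± 3.17) and H2AFY (142 ± 7.60) followed and overlapped in range, ahead of HMGB1 (95.8 ± 2.36). The chaperones and ATAD2 formed a lower tier, from CHAF1A (32.0 ± 2.84) through ASF1B (27.5 ± 0.161), ATAD2 (26.3 ± 1.73) and ASF1A (23.2 ± 0.109) to CHAF1B (10.2 ± 0.0730). ASF1B and ATAD2 overlapped there. In NSD2-KD cells H2AFZ was still first, at 530.2 ± 90.6 (SD, n = 3) per kb. H2AFY (178 ± 21.3) stood ahead of H2AFX (125 ± 18.2), and HMGB1 (74.7 ± 3.89) ahead of HMGB2 (62.2 ± 25.7), with ranges that overlapped for the HMGB genes. Among the chaperones ASF1A came first at 31.4 ± 9.83, with a range that overlapped that of CHAF1A (18.1 ± 3.90). ASF1B came next to last of the chaperones at 9.26 ± 2.49 and overlapped ATAD2 (9.87 ± 1.39). In Ctr-KD cells ASF1B stood ahead of ASF1A per kb, but not in normalized counts (mean 46.5 against 56.4). That per-kb order rests on 45 to 59 reads for each gene and library. The small SDs of n = 2 understate the counting error of so few reads.

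The ratio of related genes within a library does not depend on the size factor except through the count of 1 added before taking logs. The log2 ratio of ASF1B to ASF1A was -0.26 and -0.28 in Ctr-KD cells and -2.04, -1.95 and -2.60 in NSD2-KD cells, a difference of -1.92. The NSD2-KD ratios were all below those of the controls. For HMGB2 over HMGB1 the ratios were -1.30 and -1.29 against -2.90, -2.24 and -1.62, a difference of -0.96 in which the siRNAs were spread widely. For H2AFZ over H2AFY they were 1.24 and 1.28 against 0.53, 0.16 and 0.57, a difference of -0.84. CHAF1B over CHAF1A and H2AFZ over H2AFX differed by -0.47 and 0.23, with overlap for the latter. By the exact permutation test over libraries (two-sided, 10 regroupings), p was 0.1 for ASF1B over ASF1A and for H2AFZ over H2AFY, the smallest that 2 against 3 libraries can give, 0.2 for the CHAF1 and HMGB ratios and 0.3 for H2AFZ over H2AFX. Adjusted over the 5 ratios, the exact p-values were 0.25 for the first 4 and 0.3 for the last.

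**Figure D3:**
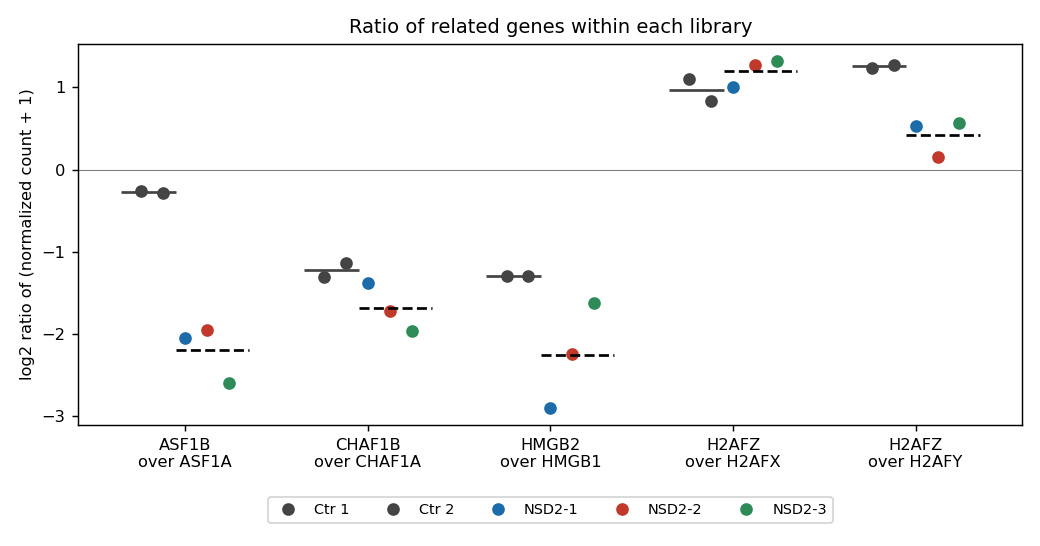
Log2 ratio of normalized count + 1 between 2 related genes in each library (points), with group means as solid (Ctr-KD) and dashed (NSD2-KD) lines. ASF1B over ASF1A moves from -0.26 and -0.28 to between -2.60 and -1.95, and HMGB2 over HMGB1 is spread from -2.90 to -1.62 across the siRNAs.

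The other genes of histone deposition were read from lists of textbook members, and their counts stand beside 13.9% of all tested genes below both controls and 4.99% lower at an unadjusted p under 0.05. Of 10 partners of CAF-1 in replication-coupled assembly, 8 lay below both controls, with a median log2 difference of -0.59. MMS22L, which works with TONSL at stalled forks, was lowest (-1.04) and RBBP4, the shared small subunit of CAF-1, highest (-0.15). By limma 0 of the 10 passed the adjusted threshold, and 0 by edgeR and DESeq2, while 5 were lower at an unadjusted p under 0.05: MMS22L, MCM2, TONSL, NASP and PCNA, named here for their p-values. Of the replication-independent chaperones of H3.3 and H3/H4, 9 passed the filter (DAXX did not) and their median was 0.05. RBBP7 was lowest (-0.32) and the HIRA partner UBN2 highest (0.14). RBBP7 alone was below both controls and lower at an unadjusted p under 0.05, and 0 of 9 passed after adjustment by limma, edgeR or DESeq2. FACT, NAP1, nucleophosmin and related chaperones of H2A and H2B, 10 genes, had 4 below both controls and a median of -0.20, from ANP32A (-0.24) to NAP1L1 (0.14), with 0 past an unadjusted p of 0.05 by limma and 0 after adjustment by any of the 3 tools. Of the CENP-A deposition genes, which mark centromeres after mitosis, 4 passed the filter (OIP5 did not) with a median of -1.16 and 3 below both controls. MIS18A was lowest (-1.70, on 13.8, 2.18 and 24.4 normalized counts against 35.2 and 31.9). HJURP alone was lower at an unadjusted p under 0.05, and 0 of 4 passed after adjustment by the 3 tools.

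Genes that act on or resemble the H2A variants and HMGB proteins had list medians between -0.19 and -0.06. The 11 subunits tested of the complexes that exchange H2A.Z had a median of -0.19, from ACTL6A (-0.34) to VPS72 (0.12), and 5 of 11 were below both controls, beside 13.9% of all tested genes. By limma 0 of 11 reached an unadjusted p of 0.05, and 0 passed after adjustment by limma, edgeR or DESeq2. Among 7 other replacement histones, H2AFV, the second H2A.Z gene, was lowest (-0.58) with 313 and 327 normalized counts in Ctr-KD cells and 233, 227 and 185 in NSD2-KD cells. H2AFV was thus low beside H2AFZ, while H2AFY2, the second macroH2A gene, was highest of the 7 (0.42) with overlapping groups. At an unadjusted p under 0.05 H2AFV was lower (4.99% of all tested genes) and the linker histone H1F0 (0.32) higher (4.19%), and 0 of 7 passed after adjustment by the 3 tools. Of 9 other HMG genes tested (HMGN5 did not pass the filter), HMGB3 was lowest (-0.61) and HMGN4 highest (0.34), with a median of -0.06. HMGB3 alone was lower at an unadjusted p under 0.05, and 0 of 9 passed after adjustment by the 3 tools. SSRP1 is counted in this list and among the FACT genes. Of 16 other bromodomain genes, the closest relative of ATAD2, ATAD2B, was lowest (-0.77, limma adjusted p = 0.309) and the acetyltransferase EP300 highest (0.43, adjusted p = 0.274). These were the 2 at an unadjusted p under 0.05, the median was -0.10, and 0 of 16 passed after adjustment by the 3 tools.

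**Figure D4:**
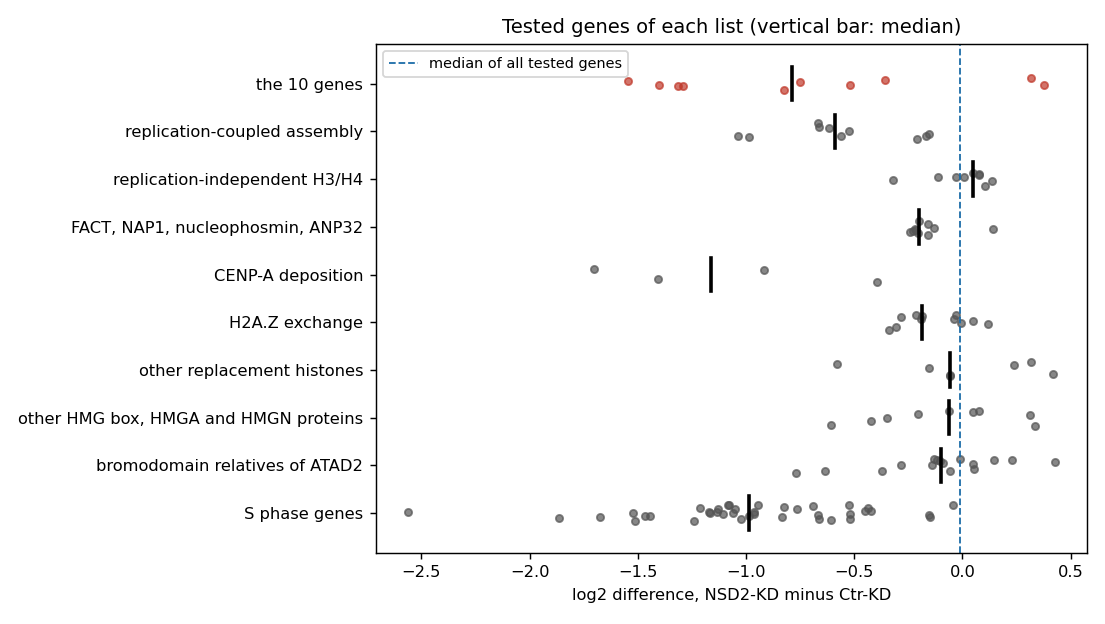
Log2 difference (NSD2-KD minus Ctr-KD) of every tested gene in each list, with the median of a list as a vertical bar and that of all tested genes as a dashed line at -0.0089. The medians of the 10 genes (-0.79), the replication-coupled partners (-0.59), the CENP-A genes (-1.16) and the S phase genes (-0.99) lie left of those of the other lists, which are between -0.20 and 0.05.

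Genes of S phase had low values in the same libraries. A published list of S phase markers, from which CHAF1B and ATAD2 had been taken out, held 41 genes, and 39 passed the filter (PRIM1 and E2F8 did not). The median log2 difference of the 39 was -0.99, 33 lay below both controls (13.9% of all tested genes) and 31 were lower at an unadjusted p under 0.05 (4.99%). RRM2, a subunit of the enzyme that makes deoxyribonucleotides, fell (-1.67, limma adjusted p = 0.00228), as did UHRF1, which maintains DNA methylation (-1.46, adjusted p = 0.0193), the 2 of 39 that passed (0.053% of all tested genes). By edgeR 4 were lower (RRM2, UHRF1, MCM5 and MCM6, against 0.0972%) and by DESeq2 8 (0.402%). The lowest values were those of DTL (-2.56) and RAD51AP1 (-1.86), which did not pass by limma, and the highest was that of UBR7 (-0.04). The summed level of the list was 3917 and 4037 normalized counts in Ctr-KD cells and 2307, 1685 and 2351 in NSD2-KD cells, so NSD2-2 was lowest here too, as it was for 8 of the 10 genes. HMGB2 is a marker of G2 and M in the companion list, and PCNA, MCM2 and NASP stand both in the S phase list and among the partners of CAF-1. The share of cells in S phase was not measured in these libraries, and the part of the cell cycle in the values of the 10 genes was not tested. Markers of other cell types were low: the summed epithelial list was 21.0 and 23.7 normalized counts in Ctr-KD cells and 26.7, 40.4 and 36.1 in NSD2-KD cells. Its 2 members that passed the filter were MUC1 (11.4 and 11.3 against 12.9, 14.2 and 23.4) and CLDN4 (8.57 and 10.3 against 12.9, 24.0 and 10.7). Each lay above both controls in every NSD2-KD library, as did 13.8% of all tested genes, and rests on few reads. Their limma adjusted p-values were 0.731 and 0.689, and their part in the result was not tested. The endothelial list summed to 101.5 to 156, nearly all of it TEK, and the blood list to 60.5 to 105, nearly all of it CD68.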

How the data were processed

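Total RNA was extracted with Trizol, and poly(A) RNA was made into libraries with the NEBNext Ultra RNA kit. Per the study's methods, reads were trimmed with Trimmomatic 0.36.3 and mapped to hg19 (GRCh37) with HISAT2 2.1.0, uniquely mapped reads were taken with SAMtools, and genes were counted with featureCounts 1.6.2 and normalized with DESeq2 (version 2.11.40.2 on Galaxy). The annotation and the strand setting are not given in the sources used here. The authors deposited normalized counts (a signal: read counts divided by the DESeq2 size factor of the library) for 26364 gene names in all 5 libraries. The table also holds the authors' own fold changes and p-values, which were not used. Dividing by the value of 1 read gave whole reads for 100% of values (tolerance 0.01).

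The 11313 genes that averaged 10 or more normalized counts over the 5 libraries were tested with limma 3.58.1 (R 4.3.3) on log2(normalized count + 1), letting the prior variance follow the mean expression, 2 Ctr-KD against 3 NSD2-KD libraries, without covariates. Fold changes on this scale understate those of low genes. P-values were adjusted by Benjamini-Hochberg over all tested genes, with a threshold of 0.05. edgeR 4.0.16 and DESeq2 1.42.0 were run on the recovered reads, and each fit was tested on simulated data. The simulation gave both groups the same spread, whereas here the controls lay closer together than the NSD2-KD libraries. It therefore cannot show how the fits behave at unequal spread. Ratios of related genes were compared by exact permutation (scipy 1.17.1). Poisson intervals are exact, at 95%, and cover counting error only, and 3 reads correspond to 2.76 to 3.28 normalized counts. Transcript lengths, exons and positions are from GENCODE on GRCh37 (canonical transcripts), and promoters from RefSeq on GRCh38.p14. MLF1IP of the S phase list was matched to CENPU as a RefSeq synonym.

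The 10 genes and all lists were chosen with earlier results of these data known. By rule, all 10 genes and NSD2 were named, and from each list the genes past the adjusted threshold and those with the lowest (3 for the S phase list) and the highest difference, except 1 gene that is not reported here. The alternatives were other pseudocounts and filters, no trend, quantile normalization, edgeR, DESeq2, a replicate block, a looser threshold, leaving out each library, and, chosen after seeing the data, averaging the Ctr-KD libraries.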

Additional observations from a re-analysis of the deposited data

How the results depend on the processing

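Over 148 values of the 10 genes under the alternatives, none turned direction, 136 kept their side of the adjusted threshold, 8 lost the call and 4 gained it. The median log2 difference of the 10 genes stayed between -0.90 and -0.65, and was -0.63 over the 8 genes tested at a minimum mean of 50. The count of genes called, 10 by limma, was 1 without the trend, 16 by edgeR, 55 by DESeq2, 102 with the replicate block, 17 at an adjusted p under 0.1, 0 to 30 when 1 library was left out and 0 with the Ctr-KD libraries averaged. The count of the 10 genes called lower, 1 by limma, was 0 without a filter, 0 at a minimum mean of 50 (where CHAF1B and ASF1B were not tested), 0 without the trend, 2 by DESeq2, 3 with the replicate block (H2AFZ, HMGB2 and ATAD2), 0 to 2 when 1 library was left out and 0 with the Ctr-KD libraries averaged. Where limma called 0 of them with at least 2 libraries in each group, 6 to 8 were lower at an unadjusted p under 0.05. Of all tested genes, 783 of 17187 were so without a filter, 346 of 7586 at a minimum mean of 50 and 594 of 11313 without the trend. The like counts were 712 of 11316 without NSD2-1 and 661 of 11317 without NSD2-2. Without either Ctr-KD library, or with both averaged, the lone control is assumed to vary like the NSD2-KD group. The replicate block pairs libraries that share only a number, which in NSD2-KD names the siRNA, and its fit leaves NSD2-3 without a partner. Deviations of same-numbered libraries correlated at -0.0152 and -0.0267 over genes. These correlations cannot tell whether libraries were paired, since the controls differ little beyond counting error. Beyond fewer libraries or genes in a fit, the cause was not tested. Depth limits CHAF1B and ASF1B most, which rest on fewer than 50 reads in every library, and 2 control libraries limit every adjusted p.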
